A study of Mus musculus with 15 samples.

Results

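The genes described here are 33 mouse genes of cholesterol and fatty acid synthesis that are known targets or regulators of the SREBP transcription factors. They were picked by gene symbol as genes of this pathway, with earlier results of these data known, and each was represented by 1 row of the deposited expression table, the row with the highest mean over the 15 libraries. All 33 were among the 29072 genes with a symbol in the table, and all 33 passed the filter on low values that left 13869 genes for testing. They comprise 18 genes of the sterol arm, 11 of the fatty acid arm, and 4 regulators and carriers (Srebf1, Srebf2, Insig1 and Stard4).

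SREBPs are made as membrane proteins of the endoplasmic reticulum. When sterols are low, the escort protein SCAP carries them to the Golgi, where proteases release the part that enters the nucleus, and when sterols are high, INSIG proteins hold SCAP back. SREBP2, from Srebf2, acts mostly on genes of cholesterol synthesis and uptake, and the SREBP1c form from Srebf1 mostly on genes that make and desaturate fatty acids. Both pathways start from cytosolic acetyl-CoA. In brown fat, fatty acid synthesis helps to supply the lipid stores of mature cells, while the cells studied here are their precursors.

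The cells were preadipocytes from the stromal-vascular fraction of interscapular brown fat of 129SvEv mice, immortalised with the SV40 large T antigen. Total RNA was sequenced in 5 groups of 3 libraries: control cells with no agent, and cells given FGF1, FGF8b, FGF9, or FGF8b with BAY-876. BAY-876 inhibits GLUT1, a carrier that brings glucose into cells. The FGFs, paracrine fibroblast growth factors, were used at 5.56 nM for 48 h with 1 µg/ml heparin according to the series text, and BAY-876 at 2 µM. The sample labels name heparin only for FGF9, and neither time nor heparin is given for the control. There was no group with BAY-876 alone or heparin alone, so the effect of BAY-876 without FGF8b and that of heparin cannot be told apart from those of the combinations. Whether the 3 libraries of each group are separate cultures is not in the labels, so p-values measure the spread between these libraries, which may be technical.

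SREBPs bind sterol regulatory elements in promoters, often beside a CCAAT box bound by NF-Y. Upstream sequences of 4 genes are shown because their levels, given further on, followed different courses: Hmgcs1 and Mvk of the sterol arm, Insig1, and Fasn of the fatty acid arm. The sequences are from RefSeq on GRCm38.p6, end before the earliest annotated transcript start, and are written 5′ to 3′ on the strand of the gene. Capitals mark matches on either strand to 3 motifs. The first is TCACNCCAC, a core of the sterol regulatory element. Another is the E-box with the letters CACGTG, which SREBP1 can also bind. The last is the CCAAT box, read as ATTGG on the other strand.
Hmgcs1, chr13:119690101-119690350, plus strand: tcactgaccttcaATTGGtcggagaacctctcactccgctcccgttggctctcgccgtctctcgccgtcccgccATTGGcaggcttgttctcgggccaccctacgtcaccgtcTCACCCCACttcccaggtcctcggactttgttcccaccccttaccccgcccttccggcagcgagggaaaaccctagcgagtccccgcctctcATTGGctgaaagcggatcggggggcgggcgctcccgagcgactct
Mvk, chr5:114444019-114444268, plus strand: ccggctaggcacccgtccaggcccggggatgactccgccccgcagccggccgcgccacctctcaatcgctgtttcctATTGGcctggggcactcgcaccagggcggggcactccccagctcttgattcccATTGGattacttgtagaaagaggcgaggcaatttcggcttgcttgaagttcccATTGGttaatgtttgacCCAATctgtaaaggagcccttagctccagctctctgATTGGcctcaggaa
Insig1, chr5:28071162-28071362, plus strand: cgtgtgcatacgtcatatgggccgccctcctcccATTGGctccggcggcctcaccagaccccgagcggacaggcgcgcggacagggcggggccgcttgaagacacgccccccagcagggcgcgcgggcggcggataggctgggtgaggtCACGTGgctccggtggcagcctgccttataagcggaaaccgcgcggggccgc
Fasn, chr11:120824548-120824797, minus strand: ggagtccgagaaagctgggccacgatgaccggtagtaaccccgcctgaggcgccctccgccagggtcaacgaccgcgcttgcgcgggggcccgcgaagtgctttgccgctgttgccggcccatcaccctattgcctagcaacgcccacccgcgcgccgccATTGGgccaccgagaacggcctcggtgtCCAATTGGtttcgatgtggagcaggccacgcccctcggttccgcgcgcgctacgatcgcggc
The Hmgcs1 sequence holds 1 match to TCACNCCAC, whose first base lies at position -137 from the annotated start, and 3 CCAAT matches. The Mvk sequence holds 5 CCAAT matches and that of Fasn 3, of which 2 share bases. The Insig1 sequence holds 1 CACGTG and 1 CCAAT.

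RefSeq windows of 300 bases, from 250 before to 50 after a start, were matched for 26 of the 33 genes. Fdps, Fdft1, Sqle, Stard4, Scd1, Scd2 and Fads1 had none. A CCAAT match stood in at least 1 window of 14 of 15 sterol arm genes, 5 of 8 fatty acid arm genes and 3 of 3 regulators, against 41.1% of 27025 genes with a window. CACGTG stood in 3 of 15 sterol arm genes, 1 of 8 fatty acid arm genes and 1 of 3 regulators, against 8.09% of all. TCACNCCAC stood in Hmgcs1 alone, against 1.44% of all genes. These are matches of letters in a short window and were not tested as sites.

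Values are taken as RPKM, read counts scaled to transcript length and to library size. The table names no unit, and this was worked out from its read-sized steps, by which 27.01 to 42.6 M reads (M, mega) stood behind a library and 1 read on 1 kb was worth 0.0234 to 0.0370 RPKM. Libraries of 1 group correlated at 0.9913 or more across genes, and libraries of different groups at 0.8786 to 0.9962. Within the FGF8b plus BAY-876 group, replicate 2 stood apart for the genes described here. It was the lowest of the 3 libraries for 18 of 18 sterol arm genes and 10 of 11 fatty acid arm genes. Arm levels, arm counts and some single genes of this group are therefore also given without it. In the FGF8b group, replicate 3 was the highest for 15 of 18 sterol arm and 10 of 11 fatty acid arm genes. Replicate 1 of that group was the lowest for 14 and 8 of them. How often these libraries were the lowest or highest over all genes was not counted, so this order may not be particular to the pathway. All 8 preadipocyte markers on a list of 8 were detected. Their summed level was 1980 to 2170 RPKM in control, 1220 to 1260 with FGF1, 748 to 790 with FGF8b, 747 to 774 with FGF9 and 427 to 449 with FGF8b plus BAY-876. Against control, the sum fell mainly through Ly6a. Its mean was 1020 RPKM in control, 245 with FGF1, 52.7 with FGF8b, 44.7 with FGF9 and 18.6 with FGF8b plus BAY-876. When BAY-876 was added to FGF8b, 6 of the 8 markers fell and 2 rose, where 34.8% of all genes fell and 22.5% rose. The larger falls in RPKM were then those of Itgb1 (419 to 290), Dlk1 (102 to 16.9) and Cd34 (118 to 53.4). With FGF1, 2 of the 8 markers rose, Itgb1 and Pdgfrb, and 4 fell. With FGF8b 2 rose, Ebf2 and Itgb1, and 6 fell, among them Pdgfra from 276 to 39.9 RPKM. With FGF9 1 rose, Itgb1, and 6 fell. With FGF8b plus BAY-876, 0 were higher and 7 lower than control. With trimmed-mean scaling of the libraries, 1 marker rose with FGF1 and 0 with FGF8b or FGF9. Over all genes tested, 19.3% rose and 15.1% fell with FGF1, 37.8% and 26.6% with FGF8b, and 38.7% and 27% with FGF9. For FGF8b plus BAY-876 against control these shares were 36.8% and 35.9%. Of 7 mature adipocyte markers only Fabp4 passed the filter, at 4.99 to 9.27 RPKM, while Lep and Cfd were at 0 in every library and Adipoq did not exceed 0.0768 RPKM. The macrophage marker Adgre1 and the muscle markers Myod1 and Myog were at 0 in every library, and Ptprc did not exceed 0.0128 RPKM. The macrophage markers Csf1r and Cd68 passed the filter, and Csf1r rose from 0.888 RPKM in control to 1.29 with FGF1 and 1.28 with FGF8b plus BAY-876. Cd68 lay between 0.367 and 1.22 RPKM and passed the test in none of the 7 comparisons. The muscle list held Acta1, which rose from 5.12 to 7.59 RPKM with FGF1 and from 4.48 with FGF8b to 6.24 with BAY-876 added. The summed endothelial markers were at 5.67 to 7.04 RPKM in control, nearly all of it Kdr, and at most at 0.787 in the treated groups. In bulk RNA, fewer cells of a type and less RNA per cell cannot be told apart, and the part of these markers' changes in the results below was not tested.

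Most genes of the pathway were higher with FGF1 and lower with FGF8b or FGF9, and most were higher with FGF8b plus BAY-876 than with FGF8b alone. Changes are log2 differences on the log2(RPKM + 0.5) scale, a scale that understates changes of low genes, and a gene was counted as changed at an adjusted p under 0.05 (limma, Benjamini-Hochberg over the 13869 genes). With FGF1, 22 of the 33 genes rose and 1 fell against control, where 19.3% of all genes tested rose and 15.1% fell. With FGF8b, 1 rose and 22 fell, where 37.8% of all genes rose and 26.6% fell. With FGF9, 1 rose and 24 fell, where 38.7% rose and 27% fell. Adding BAY-876 to FGF8b raised 29 and lowered 1 of the 33 relative to FGF8b alone, where 22.5% of all genes rose and 34.8% fell. Relative to control, 20 were higher and 4 lower in that group, against 36.8% and 35.9% of all genes. Relative to FGF1, 1 of the 33 was higher and 30 were lower with FGF8b, against 33.3% and 26.6% of all genes.

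The direct comparison of FGF9 with FGF8b called 0 of the 33 genes by limma, where 0.202% of all genes were higher and 0.0937% lower. At an unadjusted p under 0.05, Hmgcs1, Idi1, Fdps and Me1 differed, 4 of 33 against 7.04% of all genes, and voom on recovered reads also called 0. The 95% intervals of the 33 differences lay between -0.56 and 0.42. This does not show that both FGFs acted alike. Several of these comparisons share their control or FGF8b libraries, so their values stand side by side and are not independent of each other. The scale of the libraries bears on the counts over all genes. With trimmed-mean scaling 4183 genes rose and 4497 fell with FGF8b, against 5238 and 3693 without it. For FGF9 these counts were 4310 and 4543 against 5369 and 3739, and for FGF1 2140 and 2522 against 2677 and 2095. Of the 33 genes, 1 rose and 26 fell with FGF8b under this scaling, 0 rose and 28 fell with FGF9, and 18 rose and 2 fell with FGF1.

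The arms were compared by their mean log2(RPKM + 0.5) in each library, as a description with no test. In control the sterol arm stood at 5.16 ± 0.047 (SD, n = 3) and the fatty acid arm at 5.42 ± 0.043. With FGF1 both were higher, at 5.55 ± 0.018 and 5.68 ± 0.041. With FGF8b the sterol arm was at 4.42 ± 0.110 and the fatty acid arm at 5.18 ± 0.094, and with FGF9 they were at 4.29 ± 0.086 and 5.17 ± 0.048. With FGF8b plus BAY-876 they were at 5.51 ± 0.201 and 5.74 ± 0.106. The sterol arm thus moved over a wider range than the fatty acid arm.

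The difference of sterol arm minus fatty acid arm was -0.26, -0.25 and -0.27 in the control libraries and -0.11, -0.16 and -0.12 with FGF1. It was -0.79, -0.74 and -0.75 with FGF8b and -0.93, -0.87 and -0.85 with FGF9. The FGF8b and FGF9 libraries did not overlap with any other group in this difference, and the FGF9 libraries were below all FGF8b libraries. With FGF8b plus BAY-876 it was -0.15, -0.34 and -0.19, which spans the control values. Without replicate 2 of that group the remaining 2 libraries were at -0.19 and -0.15, above the control libraries.

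**Figure D1:**
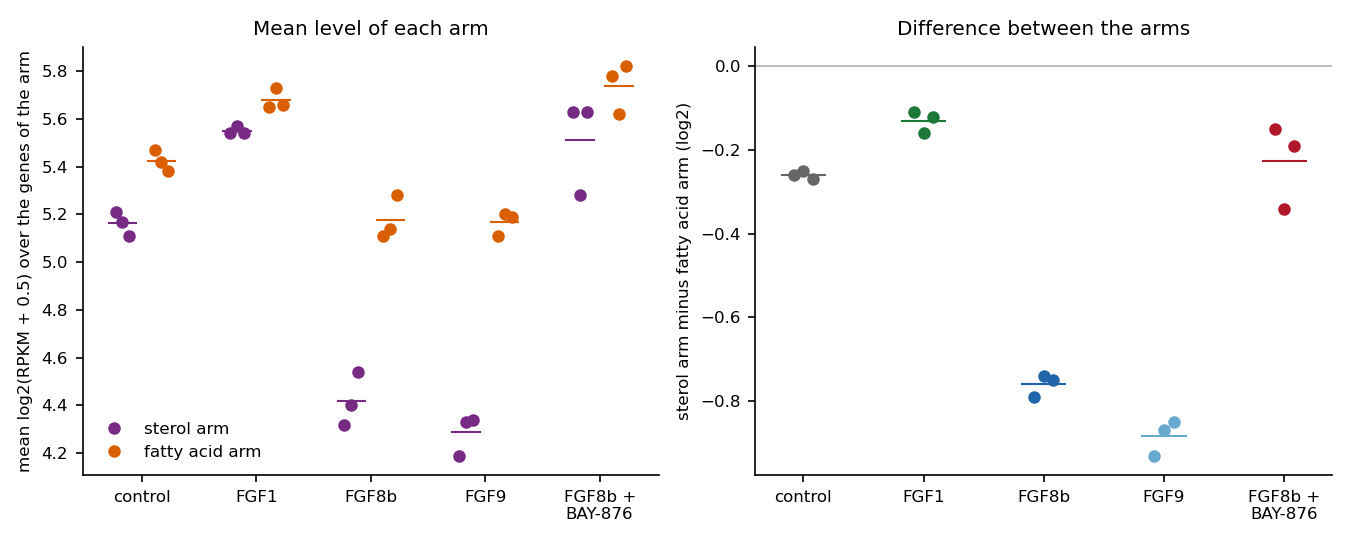
Mean log2(RPKM + 0.5) over the 18 sterol arm and 11 fatty acid arm genes in each of 15 libraries (left) and the difference of the arms (right). Points are libraries and lines are group means. The difference lies at -0.74 or below in all 6 libraries with FGF8b or FGF9 alone and at -0.34 or above in the other 9.

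Levels of the 33 genes differed widely. By mean RPKM over all libraries, Scd2 (234), Fdps (201), Scd1 (108) and Acly (106) were the most abundant, and Acss2 (6.78), Hsd17b7 (8.22), Tm7sf2 (8.42) and Dhcr7 (9.39) the least. The median was 33.5 RPKM in the sterol arm and 39 in the fatty acid arm. Between 87 and 25793 reads stood behind a gene's value in a library. Acat2 has a close relative in Acat3, and Scd1 and Scd2 resemble each other, and how reads shared by such genes were assigned is not given in the sources used here, so their levels are uncertain to that extent.

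**Figure D2:**
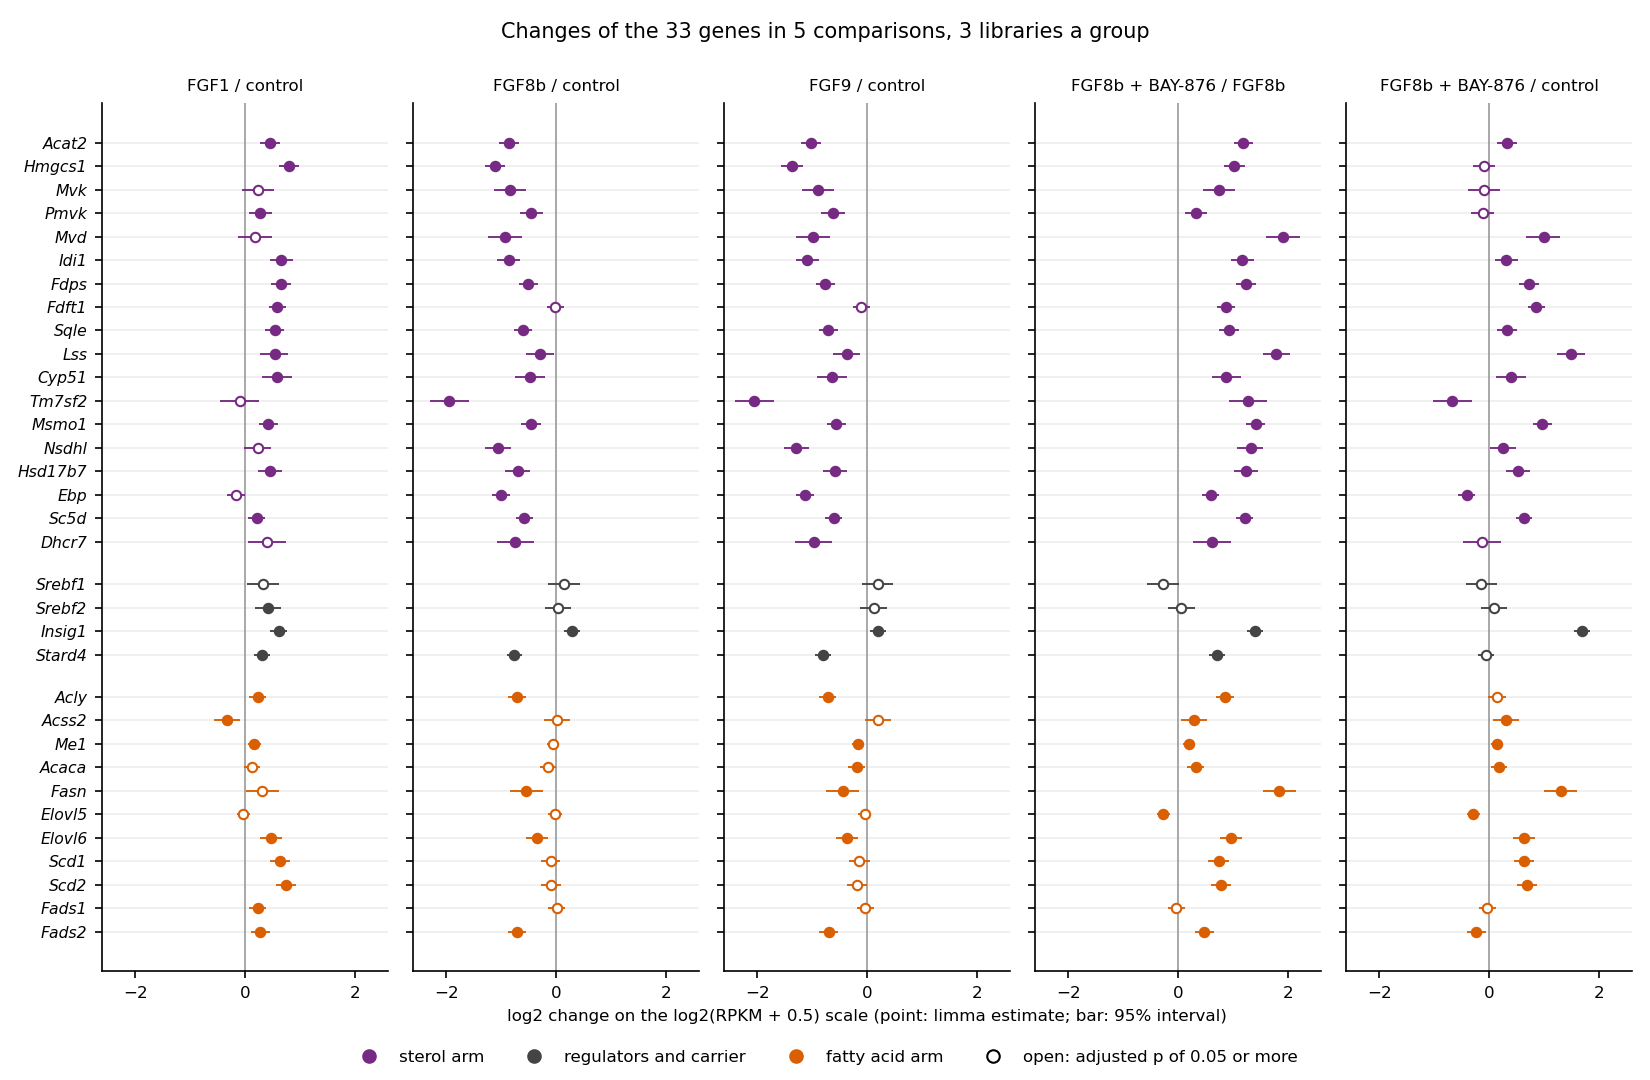
Changes of the 33 genes, in pathway order within each arm, as limma estimates of the log2 difference with 95% intervals, 3 libraries a group. Filled points have an adjusted p under 0.05. Most sterol arm points lie right of 0 with FGF1, left of 0 with FGF8b and FGF9, and all 18 lie right of 0 when BAY-876 is added to FGF8b.

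Of the regulators, Insig1 had the largest change, with FGF8b plus BAY-876. Insig1 encodes an endoplasmic reticulum protein that retains SCAP and is itself an SREBP target. It was at 26, 26.5 and 27.6 RPKM in control, 40.6, 41.3 and 41 with FGF1, 30.9, 32.4 and 34.9 with FGF8b, 30.7, 31.2 and 30.6 with FGF9, and 93.6, 76 and 93.1 with FGF8b plus BAY-876. Every treated library was above every control library, and the BAY-876 libraries stood above all others. Insig1 rose by 0.61 ± 0.07 (SE, limma) with FGF1, by 0.29 ± 0.07 with FGF8b (adjusted p = 0.00215) and by 0.20 ± 0.07 with FGF9 (adjusted p = 0.0182). Among the 33 genes, 1 was called higher with FGF8b and 1 with FGF9, and this was Insig1 both times. Its FGF9 call was lost with trimmed-mean scaling (0.10, adjusted p = 0.209) and without control replicate 1 (0.19, adjusted p = 0.0562). With FGF8b plus BAY-876 it was 3.28 times the control mean, a change of 1.69 ± 0.07 (adjusted p = 4.71e-12), and it rose by 1.40 ± 0.07 against FGF8b alone. Without replicate 2 of that group the change from control was 1.79.

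Srebf2, the gene of SREBP2, was at 34.6, 28.3 and 27.4 RPKM in control, 39.3, 41.2 and 40 with FGF1, 30, 28.7 and 33.2 with FGF8b, 27, 38.9 and 32.8 with FGF9, and 29.7, 31 and 35.1 with FGF8b plus BAY-876. Only the FGF1 libraries stood clear of control, by 0.42 ± 0.11 (adjusted p = 0.00908). FGF8b was lower than FGF1 by -0.39 ± 0.11 (adjusted p = 0.0076). The other comparisons with control did not pass, at 0.03 for FGF8b, 0.12 for FGF9 and 0.09 for FGF8b plus BAY-876, each with an SE of 0.11. Without FGF9 replicate 1 the FGF9 value was 0.25 with an adjusted p of 0.0433.

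Srebf1, the gene of SREBP1, was at 36.4, 27.7 and 25.5 RPKM in control, 39.3, 39.1 and 33.2 with FGF1, 31.7, 29.1 and 37.2 with FGF8b, 28.2, 39.9 and 34.5 with FGF9, and 25.1, 26.2 and 29.2 with FGF8b plus BAY-876. All treated groups overlapped with control. In the row used, no comparison passed the threshold, and the differences from control ranged from -0.14 to 0.32 with an SE of 0.14. Other settings moved Srebf1 past the threshold: without control replicate 1 it was 0.47 with FGF1 (adjusted p = 0.0127) and 0.34 with FGF9 (adjusted p = 0.0331), and in its RefSeq row it was 0.41 with FGF1 (adjusted p = 0.0495) and 0.37 with FGF9 (adjusted p = 0.0494). Srebf1 had 17 rows with a mean of at least 1 RPKM. All were higher than control with FGF1 (0.32 to 0.61), FGF8b (0.08 to 0.52) and FGF9 (0.19 to 0.64). With FGF8b plus BAY-876, 14 were higher and 3 lower (-0.14 to 0.20). The row used stood at the low end of these ranges, which were not tested.

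Stard4, a carrier that moves cholesterol between membranes, was at 28.5, 24.7 and 25.6 RPKM in control, 33.5, 33.4 and 31.1 with FGF1, 14.8, 15.4 and 15.5 with FGF8b, 14.8, 14.8 and 14.9 with FGF9, and 26, 22.9 and 26.7 with FGF8b plus BAY-876. The FGF8b and FGF9 libraries all lay below the control libraries, while those with BAY-876 overlapped with control. Stard4 rose by 0.31 ± 0.07 with FGF1 and fell by 0.76 with FGF8b and by 0.80 with FGF9, and BAY-876 raised it by 0.71 ± 0.07 above FGF8b alone. Against control the BAY-876 group differed by -0.06 (adjusted p = 0.449), and without its replicate 2 by 0.01.

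**Figure D3:**
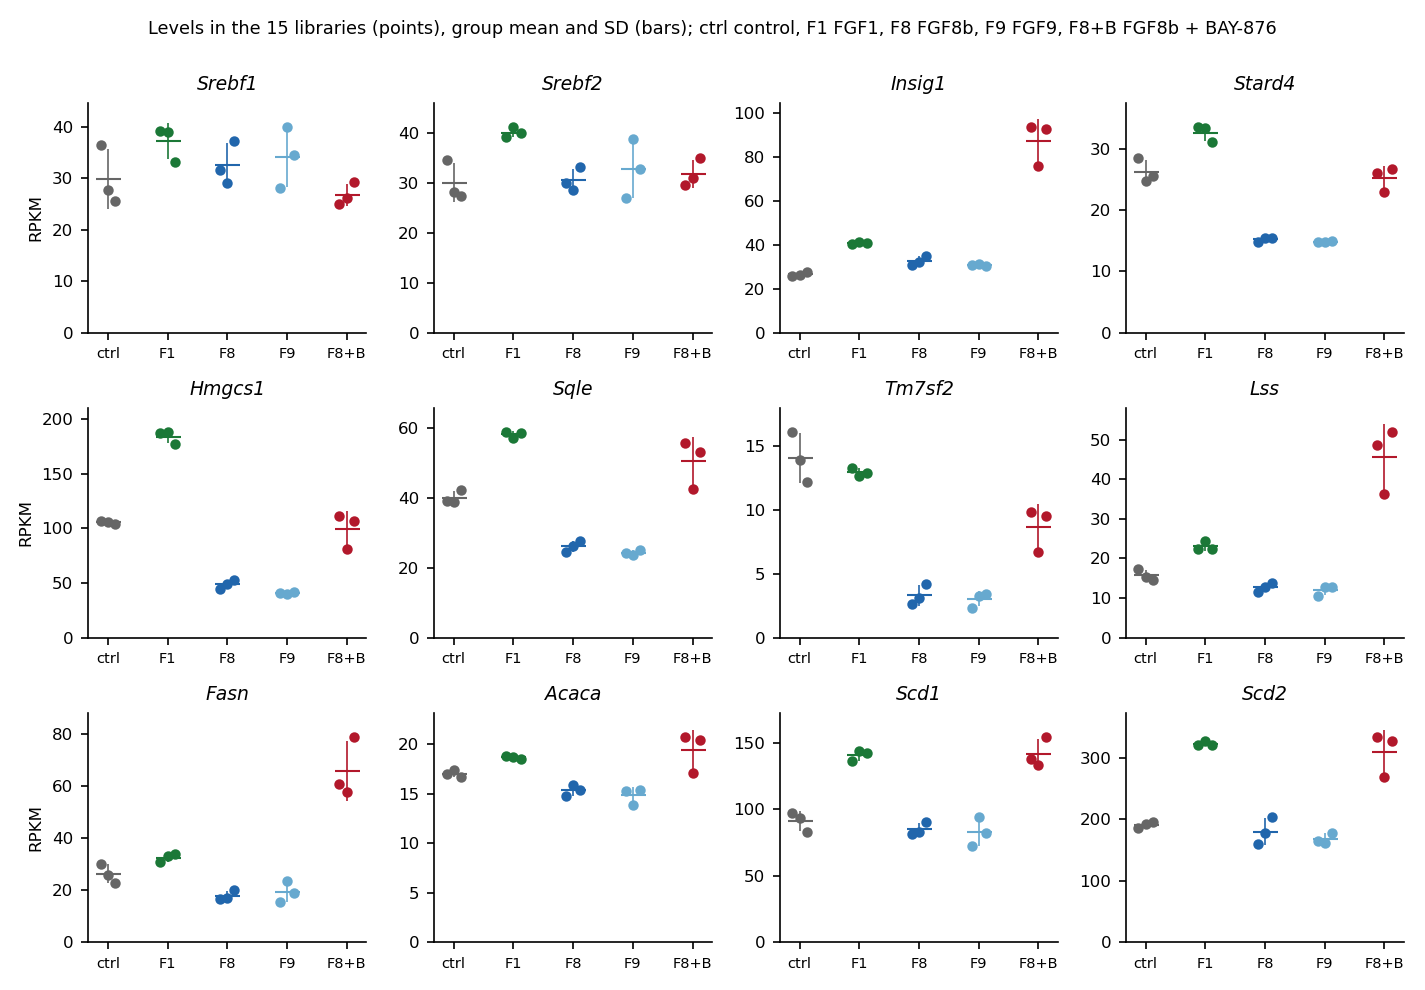
RPKM of 12 genes in the 15 libraries, with the group mean and SD. Srebf1 and Srebf2 spread over similar ranges in most groups, Hmgcs1, Sqle and Stard4 are low with FGF8b and FGF9, and Insig1, Lss and Fasn are highest with FGF8b plus BAY-876.

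In the sterol arm, 12 of 18 genes rose with FGF1 and 0 fell, where 19.3% of all genes rose and 15.1% fell. The median change was 0.44, where the median over all genes was 0.02. Hmgcs1, the cytosolic HMG-CoA synthase, was at 107, 106 and 104 RPKM in control and 187, 188 and 177 with FGF1. These libraries did not overlap, and Hmgcs1 rose 1.74-fold, by 0.80 ± 0.09 (adjusted p = 4.45e-06), the largest rise of the 33 genes with FGF1. Idi1, an isomerase of isoprenoid building blocks, rose by 0.66 ± 0.10, Fdps, the farnesyl diphosphate synthase, by 0.65 ± 0.08, and Fdft1, the squalene synthase that commits the pathway to sterols, by 0.59 ± 0.07. Acat2, Sqle, Lss, Cyp51, Msmo1 and Hsd17b7 rose by 0.42 to 0.58, and Pmvk and Sc5d by 0.28 and 0.21. Mvk, Mvd, Tm7sf2, Nsdhl, Ebp and Dhcr7 did not pass, at -0.16 to 0.40. Ebp, at -0.16, was called lower (-0.21, adjusted p = 0.0281) with trimmed-mean scaling. With that scaling 10 genes of the arm rose, as Pmvk (adjusted p = 0.061) and Sc5d (adjusted p = 0.0923) lost their calls. The Pmvk call was lost without any 1 of control replicates 2 and 3 and FGF1 replicates 1, 2 and 3 (adjusted p 0.0582 to 0.133), and that of Sc5d without control replicate 1 or FGF1 replicate 1 or 3 (0.0638 to 0.129).

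With FGF8b, 17 of the 18 sterol arm genes fell and 0 rose, where 26.6% of all genes fell and 37.8% rose. The median was -0.72 against 0.08 over all genes. Hmgcs1 was at 44.5, 49 and 52.4 RPKM, 0.461 of the control mean, a change of -1.11 ± 0.09 (adjusted p = 2.57e-08). Sqle, the squalene epoxidase, was at 39, 38.7 and 42.1 RPKM in control, 58.7, 57.2 and 58.6 with FGF1, and 24.6, 26.1 and 27.7 with FGF8b. The 3 groups of Sqle libraries did not overlap, and its FGF8b change was -0.60 ± 0.08 (adjusted p = 7.81e-06).

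Tm7sf2, a sterol reductase of the late pathway, had the largest fall of the 33 genes. It was at 16.1, 13.9 and 12.2 RPKM in control, 13.3, 12.7 and 12.9 with FGF1, 2.65, 3.09 and 4.23 with FGF8b, and 2.35, 3.28 and 3.44 with FGF9. The FGF1 libraries lay within the control range, and those with FGF8b or FGF9 lay far below it. The FGF8b mean was 0.236 of control, a change of -1.94 ± 0.17 (adjusted p = 5.05e-08). Mvk, the mevalonate kinase, was at 17.1, 13.7 and 12.7 RPKM in control, 16.2, 17.8 and 17.3 with FGF1, 8.68, 6.96 and 7.86 with FGF8b, 6.03, 9.33 and 7.5 with FGF9, and 13.9, 11.9 and 14.4 with FGF8b plus BAY-876. Its FGF8b and FGF9 libraries lay below all control libraries, and its other groups overlapped with control. Nsdhl, a sterol dehydrogenase, fell by 1.06 and Ebp, a sterol isomerase, by 1.00, and both genes had not passed with FGF1. Mvd, Acat2, Idi1, Mvk, Dhcr7 and Hsd17b7 fell by 0.70 to 0.92, and Sc5d, Fdps, Cyp51, Pmvk and Msmo1 by 0.45 to 0.58. Fdft1 was at 55.4 ± 3.35 RPKM (SD, n = 3) against 55.7 ± 2.14 in control, a difference of -0.01 with an adjusted p of 0.921. Lss, the lanosterol synthase, was lower by -0.29 ± 0.12 (adjusted p = 0.0391), a call lost without control replicate 1 or 2 or FGF8b replicate 1 or 2 (adjusted p 0.0625 to 0.146).

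Of the 18 genes, 11 both rose with FGF1 and fell with FGF8b. Singly, 19.3% of all genes rose with FGF1 and 26.6% fell with FGF8b, and the share that did both was not counted. In the direct comparison of FGF8b with FGF1 all 18 were lower, where 26.6% of all genes were lower. The median was -1.12, with a range of -1.91 (Hmgcs1) to -0.60 (Fdft1). With FGF9, 17 of 18 fell, where 27% of all genes fell, with a median of -0.83 against 0.09 over all genes. The 17 were the same as with FGF8b, and the share of all genes that fell with both was not counted. Tm7sf2 changed by -2.05 ± 0.17, Hmgcs1 by -1.36 ± 0.09 to 40.4, 39.5 and 42.1 RPKM, Nsdhl by -1.29 ± 0.11 and Ebp by -1.13 ± 0.08. Sqle was at 24.3, 23.6 and 25 RPKM, a change of -0.71 ± 0.08. Fdft1 did not pass (-0.11, adjusted p = 0.215), but was called lower (-0.22, adjusted p = 0.0161) with trimmed-mean scaling. The Lss call (-0.37, adjusted p = 0.0116) was lost without control replicate 1 or FGF9 replicate 1 (adjusted p 0.054 to 0.061).

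When BAY-876 was added to FGF8b, 22.5% of all genes rose and 34.8% fell. All 18 sterol arm genes rose relative to FGF8b alone, with a median of 1.18 against -0.08 over all genes. The same held without replicate 2 of this group, with 18 higher and a median of 1.28. Mvd, the mevalonate diphosphate decarboxylase, rose 3.94-fold, by 1.91 ± 0.14 (adjusted p = 2.42e-08), from 8.90 ± 0.634 to 35.1 ± 5.97 RPKM (SD, n = 3). Lss rose by 1.79 ± 0.12, Msmo1, a sterol demethylating oxygenase, by 1.42 ± 0.08 and Nsdhl by 1.32 ± 0.11. Hmgcs1 was at 111, 81.5 and 107 RPKM and Sqle at 55.6, 42.5 and 53.1, all above every FGF8b library, with changes of 1.02 ± 0.09 and 0.93 ± 0.08. The smallest change, of Pmvk (0.33 ± 0.10), lost its call without replicate 3 of the BAY-876 group (0.21, adjusted p = 0.0666).

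Set against control, the genes of the sterol arm fell into several classes with FGF8b plus BAY-876. Of the 17 genes that had fallen with FGF8b, 11 were above control with BAY-876, 4 did not pass the test, and 2 were below. Against control, 36.8% of all genes were higher and 35.9% lower. These classes were not counted among all genes that fell with FGF8b. With Fdft1, 12 of 18 were higher and 2 lower than control, with a median of 0.33 against 0.01 over all genes. Without replicate 2 the counts were again 12 and 2, with a median of 0.45. Lss was at 17.3, 15.3 and 14.6 RPKM in control, 22.3, 24.5 and 22.3 with FGF1, 11.6, 12.9 and 13.7 with FGF8b, 10.5, 12.9 and 12.8 with FGF9 and 48.8, 36.2 and 51.9 with FGF8b plus BAY-876. It was chosen for display after its values were seen, as the sterol arm gene with the largest rise over control, 2.90-fold or 1.49 ± 0.12 (adjusted p = 1.28e-08). Mvd (0.99 ± 0.14), Msmo1 (0.96 ± 0.08), Fdft1 (0.86 ± 0.07) and Fdps (0.73 ± 0.08) were also above control.

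Tm7sf2, at 9.87, 6.69 and 9.55 RPKM with BAY-876, was above every FGF8b library and below every control library, with a difference from control of -0.67 ± 0.17 (adjusted p = 0.00185). Ebp was the other gene below control, by -0.41 ± 0.08. Hmgcs1, Mvk, Pmvk and Dhcr7 did not pass, at -0.13 to -0.10. Among the smaller rises over control, that of Nsdhl (0.26, adjusted p = 0.0499) was lost when any library other than BAY-876 replicate 2 was left out (adjusted p 0.0571 to 0.249). That of Idi1 (0.31) was lost without BAY-876 replicate 1 (adjusted p = 0.0667), and that of Cyp51 (0.40) without replicate 1 or 3 of that group (adjusted p 0.0525 to 0.0573). Without BAY-876 replicate 3, Pmvk was called lower than control (-0.23, adjusted p = 0.0376).

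In the fatty acid arm, FGF1 raised 7 of 11 genes and lowered 1, where 19.3% of all genes rose and 15.1% fell. The median was 0.23 against 0.02 over all genes. The largest rises in the arm were those of the stearoyl-CoA desaturases, which make monounsaturated fatty acids. Scd2 was at 186, 192 and 196 RPKM in control and 320, 327 and 321 with FGF1, and rose by 0.75 ± 0.08 (adjusted p = 4.54e-06). Scd1 was at 97.1, 93.2 and 82.9 RPKM in control and 136, 144 and 142 with FGF1, and rose by 0.63 ± 0.09 (adjusted p = 2.97e-05). Neither gene's FGF1 libraries overlapped with control. Elovl6, an elongase of saturated and monounsaturated fatty acids, rose by 0.48 ± 0.09.

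Several smaller FGF1 changes depended on single libraries. Acly (ATP citrate lyase, 0.23), Me1 (malic enzyme, 0.17) and the polyunsaturated fatty acid desaturases Fads1 (0.23) and Fads2 (0.28) rose, and Acss2 (acetyl-CoA synthetase) was lower at -0.33. The count of 8 called genes was 4 without control replicate 2, 5 without control replicate 3, 4 without FGF1 replicate 2 and 5 without FGF1 replicate 3. Acly was lost in each of these 4 fits (adjusted p 0.0572 to 0.0887), and Fads1 in them and without FGF1 replicate 1 (0.0577 to 0.0732). Fads2 was lost without control replicate 3 or FGF1 replicate 2 (0.0666 to 0.0673), and Me1 without control replicate 2 or FGF1 replicate 2 (0.0657 to 0.0837). Acss2 was lost without control replicate 1 or 2 or FGF1 replicate 1 or 3 (0.0747 to 0.134). Fasn (0.31), Acaca (0.13) and Elovl5 (-0.03) did not pass. With trimmed-mean scaling 5 genes of the arm rose and 1 fell, as Me1 (adjusted p = 0.0515) and Fads1 (adjusted p = 0.0517) lost their calls.

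With FGF8b, 4 of 11 fatty acid arm genes fell and 0 rose, with a median of -0.10, where 26.6% of all genes fell and the median over all genes was 0.08. Acly fell by 0.71 and Fads2 by 0.71, each to about the same share of control, 0.612 and 0.608. Fasn, the fatty acid synthase, was at 30.1, 26 and 23 RPKM in control, 30.9, 33 and 33.9 with FGF1, and 16.6, 17 and 20.2 with FGF8b. Its FGF8b libraries lay below the control libraries, and it fell by 0.54 (SE 0.14, adjusted p = 0.00336). Elovl6 fell by 0.34. The median was -0.16 without control replicate 3 and -0.07 without FGF8b replicate 1. With RefSeq rows 5 genes fell. With trimmed-mean scaling 8 genes fell, the 4 others being Me1 (-0.15), Acaca (-0.24), Scd1 (-0.20) and Scd2 (-0.20).

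Without that scaling these genes did not pass with FGF8b. Scd1 was at 81.7, 82.7 and 90.4 RPKM, a difference of -0.10 ± 0.09, and Scd2 at 159, 177 and 203, a difference of -0.09 ± 0.08, and both overlapped with control. Acaca, the acetyl-CoA carboxylase that makes malonyl-CoA, was at 17, 17.4 and 16.7 RPKM in control, 18.8, 18.7 and 18.5 with FGF1, and 14.8, 15.9 and 15.4 with FGF8b. Its 3 groups of libraries did not overlap, but the differences were small, 0.13 and -0.14 (adjusted p = 0.172 and 0.0796). Me1, Elovl5, Fads1 and Acss2 lay between -0.05 and 0.02, but in its RefSeq row Acss2 was lower by -1.35 (adjusted p = 7.94e-09).

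In the direct comparison, FGF8b was lower than FGF1 for 9 of the 11 genes and higher for Acss2, with a median of -0.73. Over all genes, 26.6% were lower and 33.3% higher. Scd2 was lower by -0.85 ± 0.08 and Scd1 by -0.73 ± 0.09. The Fads1 call (-0.21) was lost without FGF8b replicate 1 or 2 (adjusted p 0.0669 to 0.0829). That of Acss2 (0.34) was lost without FGF1 replicate 1 or 3 or FGF8b replicate 3 (0.0639 to 0.069), and its RefSeq row was lower, at -1.15 (adjusted p = 6.62e-08).

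With FGF9, 6 fatty acid arm genes fell and 0 rose, with a median of -0.18, where 27% of all genes fell. With trimmed-mean scaling 9 fell and the median was -0.29, the 3 others being Elovl5 (-0.15), Scd1 (-0.25) and Scd2 (-0.29). Acly fell by 0.72, Fads2 by 0.70 and Elovl6 by 0.36. Fasn was at 15.6, 23.7 and 19.1 RPKM, Acaca at 15.3, 13.9 and 15.4, Scd1 at 72.7, 94 and 82.4 and Scd2 at 165, 162 and 178. The Fasn libraries overlapped with control, and its call (-0.44, adjusted p = 0.0124) was lost without control replicate 1 or FGF9 replicate 1 (0.0632 to 0.0727). The Acaca call (-0.19) was lost without control replicate 1 or 2 or FGF9 replicate 2 (0.051 to 0.106). Me1 fell by 0.17. Scd1 (-0.14, adjusted p = 0.172) did not pass, but passed without FGF9 replicate 2 (-0.23, adjusted p = 0.0212) and in its RefSeq row (-0.22, adjusted p = 0.0075).

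BAY-876 raised 9 of 11 fatty acid arm genes relative to FGF8b alone and lowered Elovl5, an elongase of polyunsaturated fatty acids, with a median of 0.48. Over all genes, 22.5% rose and 34.8% fell, with a median of -0.08. Without replicate 2 of the BAY-876 group 8 of the 11 rose and 1 fell, with a median of 0.56, and the gene lost was Acss2 (0.19, adjusted p = 0.173). Fasn had the largest change of the arm. It was at 60.9, 57.7 and 78.8 RPKM with FGF8b plus BAY-876, above every library of every other group, a change of 1.84 ± 0.14 against FGF8b (adjusted p = 2.94e-08) and 1.30 ± 0.14 against control. Elovl6 rose by 0.97 ± 0.09, Acly by 0.85 ± 0.08, Scd2 by 0.78 ± 0.08 and Scd1 by 0.74 ± 0.09. Fads1 did not pass (-0.04, adjusted p = 0.666), and Elovl5 fell by 0.27.

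Against control, 7 fatty acid arm genes were higher with FGF8b plus BAY-876 and 2 lower, with a median of 0.18, and without replicate 2 it was 7 and 1 with a median of 0.22. Over all genes, 36.8% were higher and 35.9% lower than control. Scd1, at 138, 133 and 154 RPKM, and Scd2, at 333, 268 and 327, were above every control library, by 0.64 ± 0.09 and 0.69 ± 0.08, and overlapped with the FGF1 libraries. Acaca, at 20.7, 17.1 and 20.4 RPKM, was higher by 0.18, a call lost without control replicate 1 or 3 or BAY-876 replicate 1 or 3 (adjusted p 0.0624 to 0.137). Of the 4 genes that had fallen with FGF8b, Fasn and Elovl6 (0.63 ± 0.09) were above control, Acly did not pass (0.14, adjusted p = 0.103) and Fads2 was lower (-0.23, adjusted p = 0.0191). Elovl5 was lower by -0.29 ± 0.06.

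Other small differences from control depended on a library. The Fads2 call was lost without control replicate 1 or 2 or BAY-876 replicate 2 (0.0519 to 0.109). The Me1 call (0.15) was lost without control replicate 2 or BAY-876 replicate 1 or 3 (0.0754 to 0.0985), and Acss2 (0.30) without control replicate 3 or BAY-876 replicate 2 (0.078 to 0.117). Acly was called higher without BAY-876 replicate 2 (0.22, adjusted p = 0.0143). Against FGF8b, Acss2 (0.29) was also lost without FGF8b replicate 1 or 2.

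For Acss2 the direction of some changes depended on the row of the table, and its values were chosen for display after they were seen. Its row with the highest mean belongs to a transcript of 646 bases and read 6.91, 6.52 and 6.06 RPKM in control and 6.51, 5.94 and 7.33 with FGF8b, which overlap. Its RefSeq row read 9.41, 9.34 and 9.07 in control, 7.5, 8.06 and 8.53 with FGF1, 3.05, 3.2 and 3.79 with FGF8b, 3.31, 3.04 and 3.68 with FGF9, and 4.72, 3.47 and 4.41 with FGF8b plus BAY-876. In the RefSeq row Acss2 fell with FGF8b and with FGF9, by 1.35 in each (adjusted p = 7.94e-09 and 7.14e-09), and it was lower by -1.07 with FGF8b plus BAY-876 against control. Of the 11 Acss2 rows with a mean of at least 1 RPKM, 10 were lower with FGF8b and 1 higher. By contrast, all 5 Insig1 rows rose with FGF8b, by 0.28 to 0.30.

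**Figure D4:**
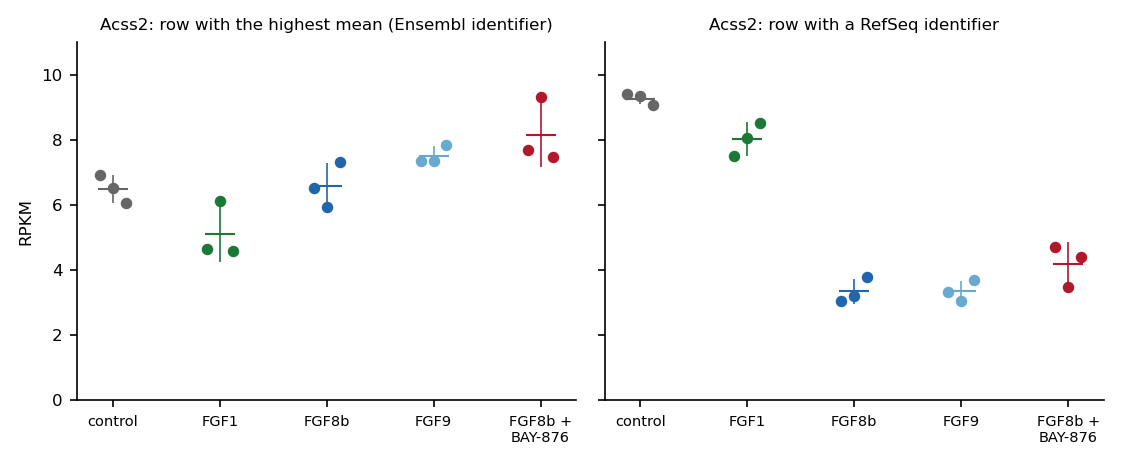
RPKM of Acss2 in 2 rows of the table, with libraries as points and the group mean and SD. In the row used in the counts (left) FGF8b overlaps with control, and in the RefSeq row (right) the FGF8b and FGF9 libraries lie between 3.04 and 3.79, below all control libraries.

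Genes around the pathway were taken from lists chosen with earlier results of these data known. Their counts are to be read against all genes, of which 37.8% rose and 26.6% fell with FGF8b, and 22.5% rose and 34.8% fell when BAY-876 was added to it. Against control, these shares were 19.3% and 15.1% with FGF1, 38.7% and 27% with FGF9, and 36.8% and 35.9% with FGF8b plus BAY-876. Of 10 genes of SREBP processing and turnover, 4 rose and 4 fell with FGF8b. Erlin1, which takes part in the degradation of endoplasmic reticulum proteins, rose by 0.86 ± 0.09, and Mbtps2, the protease that makes the final cut in SREBPs, by 0.84 ± 0.07. With FGF1, 4 rose and 2 fell, led by Insig2 (0.51 ± 0.11) and Rnf139 (-0.32 ± 0.06). When BAY-876 was added to FGF8b, 1 rose and 5 fell, with Mbtps1, the protease of the initial cut, changing by -0.84 ± 0.05 and Faf2 by -0.49 ± 0.07. With FGF9, 5 rose and 4 fell, and with FGF8b plus BAY-876 3 were higher and 6 lower than control.

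Of 12 genes of sterol trafficking and storage, 4 rose and 4 fell with FGF8b, led by the lipoprotein receptor gene Vldlr (1.61 ± 0.11) and by Npc2 (-0.87 ± 0.06), a lysosomal cholesterol carrier. With BAY-876 added, 6 rose and 1 fell, led by Soat1 (1.17 ± 0.07), which makes cholesterol esters for storage, and Npc1 (1.13 ± 0.07), which exports cholesterol from lysosomes. With FGF1, 2 rose and 5 fell, with FGF9 4 rose and 4 fell, and with FGF8b plus BAY-876 7 were higher and 3 lower than control. Among 6 tested receptors and targets of LXR, the receptor that answers to oxysterols, 4 fell and 1 rose with FGF8b, with a median of -0.76. The 1 that rose was the receptor gene Nr1h3, at a mean of 1.16 RPKM in control and 1.73 with FGF8b. Its libraries overlapped with control, and its call (0.47, adjusted p = 0.0499) was lost with trimmed-mean scaling. Smpdl3a, a phosphodiesterase gene, changed by -2.63 ± 0.13 and the cholesterol exporter Abca1 by -2.07 ± 0.13, from 7.85 to 1.49 RPKM. With BAY-876 added, 1 rose and 2 fell, led by Abca1, which rose by 0.62 ± 0.13 to 2.53 RPKM, and by Nr1h3. The latter changed by -0.59 ± 0.20, to 0.998 RPKM. With FGF1, 1 of these genes rose and 2 fell, with FGF9 0 rose and 4 fell, and with FGF8b plus BAY-876 0 were higher and 4 lower than control.

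Of 8 genes of isoprenoid branches, which use farnesyl diphosphate for other products, 3 rose and 0 fell with FGF8b, led by Pdss1 (0.77 ± 0.11) and Fntb (0.37 ± 0.07). With BAY-876 added, 1 rose and 3 fell, led by Fnta (-0.72 ± 0.06) and Pdss2 (0.52 ± 0.15). With FGF1, 2 rose and 1 fell, with FGF9 3 rose and 1 fell, and with FGF8b plus BAY-876 2 were higher and 2 lower than control. Of 18 tested genes of fatty acid supply, elongation and activation, 6 rose and 8 fell with FGF8b. Mid1ip1, an activator of acetyl-CoA carboxylase, rose by 1.08 ± 0.13, and Idh1, a cytosolic source of NADPH, changed by -1.05 ± 0.08. With BAY-876 added, 9 rose and 3 fell, led by Pgd (1.38 ± 0.07), a NADPH-making enzyme of the pentose phosphate pathway, and Mid1ip1 (0.81 ± 0.13). With FGF1, 5 rose and 5 fell, with FGF9 6 rose and 9 fell, and with FGF8b plus BAY-876 10 were higher and 5 lower than control.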

How the data were processed

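The 15 RNA sequencing libraries were made from total RNA with the TruSeq RNA v2 kit, per the labels' protocols, and the submitters' processing notes name CASAVA and bcl2fastq. The sources used here do not give the aligner, genome build or annotation. The authors deposited 1 table of 168326 transcript lines with 15 value columns and a decimal comma, in a unit the table does not name, here RPKM: for tested genes the values were whole reads at a fixed step per library for 13869 of 13869 genes (tolerance 0.02 read), and the transcript length these steps imply equalled the annotated one for 90.9% of 3476 Ensembl transcripts compared. Lines without a symbol (23172) were left out. Levels were log2(RPKM + 0.5), 1 row per symbol, and a gene was tested where 3 or more libraries reached 0.5 RPKM. limma 3.58.1 (R 4.3.3, empirical Bayes with trend, 10 residual degrees of freedom) was fitted over all 15 libraries, with Benjamini-Hochberg adjustment within each of 7 comparisons and a threshold of 0.05. Alternatives were other pseudocounts, filters, scaling, rows, tools, groups and libraries, and a replicate block. The members and lists were chosen with earlier results of these data known. All 33 genes are named. Values per library are given for Srebf1, Srebf2, Insig1, Stard4, Hmgcs1, Sqle, Fasn, Acaca, Scd1 and Scd2 and for the gene of each arm with the largest change, and, outside this rule, for Mvk, Lss and Acss2. Genes named from other pathway lists are among the 2 largest changes of their list in a comparison.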

Additional observations from a re-analysis of the deposited data

How the results depend on the processing

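Across 7 comparisons and the alternatives, counts of called sterol arm genes stayed within 1.5 times of those reported. Medians are on the log2 scale. With trimmed-mean scaling the sterol arm median was 0.39 with FGF1, -0.82 with FGF8b and -0.93 with FGF9 against control, and -1.17 for FGF8b against FGF1. For the fatty acid arm this scaling gave 8 called genes and a median of -0.20 with FGF8b, -0.29 with FGF9, and -0.78 for FGF8b against FGF1. With a pseudocount of 1 the sterol arm medians were -0.68, -0.80 and -1.07 for FGF8b and FGF9 against control and FGF8b against FGF1, and with voom on recovered reads -0.77 and -0.85 for FGF8b and FGF9. RefSeq rows gave a sterol arm median of -0.79 with FGF9 and a fatty acid arm median of -0.79 for FGF8b against FGF1, and reversed Acss2 to -1.07 for FGF8b plus BAY-876 against control and -1.15 for FGF8b against FGF1. The cause was not tested. Leaving out 1 library at a time gave sterol arm medians of 0.41 to 0.46 (FGF1), -0.79 to -0.63 (FGF8b), -0.90 to -0.73 (FGF9), -1.17 to -1.08 (FGF8b against FGF1) and -0.17 to -0.06 (FGF9 against FGF8b). It gave 4 to 7 called fatty acid arm genes with FGF1, and fatty acid arm medians of -0.16 to -0.07 for FGF8b against control and -0.77 to -0.70 for FGF8b against FGF1. Whether replicate numbers pair libraries was not settled. Pairs were correlated across genes by the deviations of each library from its group mean. Of 30 same-number pairs, 11 correlated above 0.1 (-0.443 to 0.534), but pairs of different numbers were not computed for comparison. With a replicate block, of 231 member values (33 genes in 7 comparisons) 2 lost their call, Pmvk with FGF1 (0.28) and Lss with FGF8b (-0.29), and the 8 called fatty acid arm genes with FGF1 stayed 8. With 3 libraries a group, small changes such as those of Pmvk, Sc5d, Me1 and Acaca could pass or miss the threshold with 1 library left out. The unit of the values was inferred from the table, and the choice of transcript row decided the direction for Acss2.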
